A study of Mus musculus with 5 samples.

Results

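The BCL2 family genes described here are 10 cell death genes, read by symbol from the count tables of all 5 libraries of the series, which hold 23284 gene symbols each. The rule that picks them is a list of names and uses no measured value, but the list was drawn up with earlier results of these data known. They comprise 3 pro-survival genes (Bcl2, Bcl2l1 and Mcl1), 2 effectors (Bax and Bak1) and 5 BH3-only genes (Bcl2l11, Bbc3, Pmaip1, Bid and Bmf). All 10 passed the filter on low counts, with between 148 and 17122 reads per gene and library.

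RNA was taken from mouse forelimb buds. At embryonic day E11.5 the distal bud, from which the digits arise, was micro-dissected from wild-type embryos and from Hoxa13-/-;Hoxd13-/- embryos, called mutant below, with 2 libraries of each genotype on a mixed C57BL/6 - CD1 background. In the mutant, Hoxa13 carries a neomycin cassette in its coding region and Hoxd13 a lacZ reporter in its first exon, in every cell of the embryo. Each genotype's libraries were made from separate tissue pools; the labels give N = 4 tissue samples and do not state if that is per pool. The remaining library was E10.5 forelimb bud with the strain label CD1 and no genotype in its labels, so stage, dissected part and strain label cannot be told apart in any contrast with it.

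BCL2 family proteins decide whether the outer mitochondrial membrane of a stressed cell is opened. Pro-survival proteins hold the effectors BAX and BAK in check. BH3-only proteins bind the pro-survival proteins, and some also activate the effectors, after which cytochrome c leaves the mitochondrion and caspases are switched on. In the limb bud this route removes cells at the margins of the bud and later between the digits, and mice without both effectors, or without both BIM and BMF, keep webs of tissue between their digits. Loss of Hoxa13 is known for reduced cell death between the digits at later stages.

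Reads counted in genes ranged from 45115494 to 84172202 per library. Levels are given as CPM, a gene's reads divided by all reads its library has in genes, on the usual CPM scale. Hoxd13 had 47.7 and 40.0 CPM in the mutant libraries and 247 and 246 in the wild-type libraries, and Hoxa13 had 48.0 and 39.8 against 50.8 and 47.2, where reads outside the cassette can remain. The 7 markers of limb mesenchyme summed to between 1043 and 1270 CPM in every library. This sum hides changes of single markers, since 5 of the 7 were lower in the mutant and Prrx1, the most counted, was higher. Whether the counting used strand was not given in the sources used here, so genes that overlap a gene on the other strand are uncertain.

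In the mutant distal limb bud Pmaip1 rose and Bcl2 fell, and the other 8 members did not pass the test. The words rose and fell are kept for genes whose edgeR quasi-likelihood test gave an adjusted p under 0.05 over 16166 genes, and 7.16% of all genes tested were called, 3.82% risen and 3.34% fallen. The median log2 fold change of the 10 members, mutant over wild type, was -0.0052, beside -0.0008 over all genes tested. By CPM, both mutant libraries lay above both wild-type libraries for 2 members and below them for 4, so that the groups did not overlap for 6 of 10. Among all genes tested the same held for 26.6% (above), 22.9% (below) and 49.5% (either), the last beside 6 of 10 members.

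**Figure D1:**
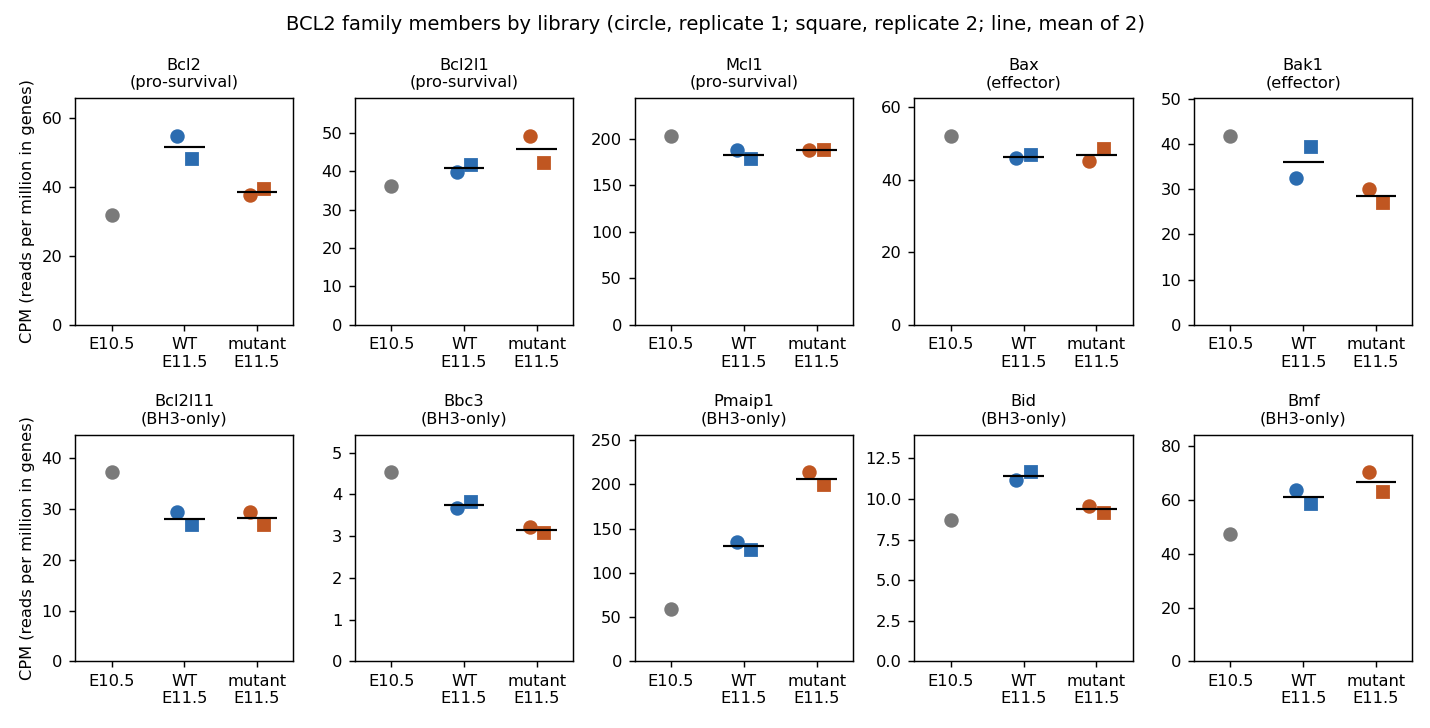
CPM (vertical axes, each starting at 0) of the 10 members in the E10.5 library (grey), the 2 wild-type E11.5 libraries (blue) and the 2 mutant E11.5 libraries (orange), with circles for replicate 1, squares for replicate 2 and lines for the mean of 2. Pmaip1 lies at 59.2 CPM at E10.5, between 126 and 134 in wild type and between 199 and 214 in the mutant, while the Mcl1 and Bax points of both genotypes lie at one level.

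Pmaip1 encodes NOXA, a BH3-only protein that binds mainly MCL1 and was first described as a target of p53. It had 134 and 126 CPM in the wild-type libraries, 214 and 199 in the mutant libraries and 59.2 at E10.5. Every mutant library was above every wild-type library, and the E10.5 library was the lowest of all. Wild type had a mean of 130 ± 6.01 CPM and the mutant one of 206 ± 10.1 (SD, n = 2). The rise was 1.57-fold with a 95% interval of 1.38 to 1.79, or 0.65 on the log2 scale (SE 0.09, adjusted p = 0.000511).

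Summed markers of macrophages had the same order of groups as Pmaip1, and the sums for erythroid cells and endothelium had it at E11.5 alone. Not every single marker had the order of its sum. The 12 macrophage markers summed to 17.9 CPM at E10.5, 59.9 and 75.5 in wild type and 91.8 and 88.1 in the mutant, and 2 of 12 rose (Lyz2 and Mrc1) with 0 fallen. The 10 erythroid markers, of which Hba-a1 was listed at 0 in all libraries, summed to 2450 and 2357 CPM in wild type and to 3071 and 3022 in the mutant, but to 3467 at E10.5. Of the 9 erythroid markers tested, Hbb-bh1 rose and 0 fell. The 8 endothelial markers summed to 221 and 225 CPM in wild type, 269.5 and 243.7 in the mutant and 273 at E10.5, and Flt1 rose with 0 fallen. The part of these cells in the Pmaip1 values was not tested. In bulk tissue, more cells of a type and more RNA per cell cannot be told apart.

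The other BH3-only members did not pass the test, and their intervals leave room for small changes only in some of them. Bcl2l11 encodes BIM, which binds all pro-survival proteins and is held by dynein light chains in resting cells. It had 29.3 and 26.7 CPM in wild type, 29.5 and 26.8 in the mutant and 37.15 at E10.5, with overlapping E11.5 groups. Its log2 fold change was -0.0080 (SE 0.11, adjusted p = 0.981), and the 95% interval ran from 0.848-fold to 1.17-fold. Bmf encodes a BH3-only protein that is likewise tied to the cytoskeleton. It had 63.6 and 58.4 CPM in wild type, 70.2 and 63.0 in the mutant and 47.4 at E10.5. The E11.5 groups overlapped, and the interval ran from 0.936-fold to 1.25-fold around a log2 fold change of 0.11 (adjusted p = 0.596).

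Bid encodes the BH3-only protein that caspase 8 cleaves, which links death receptors to mitochondria. It had 11.1 and 11.6 CPM in wild type, 9.58 and 9.17 in the mutant and 8.69 at E10.5. Both mutant libraries were below both wild-type libraries, but the log2 fold change of -0.30 (SE 0.14) had an adjusted p of 0.264 and an interval from 0.662-fold to 1.002-fold. Bbc3 encodes PUMA, a strong p53 target, and was the least counted member. It had 3.68 and 3.81 CPM in wild type, 3.23 and 3.06 in the mutant and 4.53 at E10.5. Its libraries were ordered like those of Bid at E11.5, and its change was -0.27 on the log2 scale (SE 0.20, adjusted p = 0.540). The interval of Bbc3, from 0.612-fold to 1.13-fold, was the widest of the 10 on the log2 scale.

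Bcl2 encodes the founding pro-survival protein of the family. It had 54.7 and 48.1 CPM in the wild-type libraries, 37.6 and 39.3 in the mutant libraries and 31.6 at E10.5. Both mutant libraries were below both wild-type libraries. The mean was 51.4 ± 4.66 CPM in wild type and 38.5 ± 1.25 in the mutant (SD, n = 2). The ratio was 0.741-fold with a 95% interval of 0.641 to 0.857, or -0.43 on the log2 scale (SE 0.10, adjusted p = 0.0178). The call ended without mutant replicate 1 (-0.40, adjusted p = 0.141) and without mutant replicate 2 (-0.46, 0.0640). In the GENCODE annotation the exons of Bcl2 overlap those of D630008O14Rik on the other strand, which has no row in the count tables, so the Bcl2 value is uncertain if strand was not used.

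Summed neuronal, muscle and surface ectoderm markers had the order of groups that Bcl2 had, but not every single marker had it. The 8 markers of neurons and the Schwann cell lineage summed to 43.0 and 47.4 CPM in wild type, 21.6 and 21.8 in the mutant and 20.1 at E10.5, and 2 of 8 fell (Tubb3 and Stmn2) with 0 risen. The 8 markers of the muscle lineage summed to 84.1 and 96.3 CPM in wild type, 55.9 and 71.4 in the mutant and 37.7 at E10.5, and Actc1 fell with 0 risen. The 10 markers of surface ectoderm summed to 358 and 368 CPM in wild type, 339 and 356 in the mutant and 253.5 at E10.5, and 2 of 10 fell (Krt14 and Krt8) with 0 risen. Among the 7 mesenchyme markers 5 fell and Prrx1 rose. Some single markers went the other way. For example, Pax3 was higher at E10.5 (20.6 CPM) than in wild type (3.39 and 3.47). So were Lbx1 (5.12 against 0.798 and 0.734) and Krt8 (29.7 against 16.9 and 19.2). Krt5 was higher in the mutant (75.25 and 76.9 CPM) than in wild type (65.8 and 68.2). The part of these cells in the Bcl2 value was not tested.

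The proximal promoter of Bcl2, the pro-survival member that fell, is shown beside that of Bax, whose level was alike in both genotypes, to let the sequences of a member of each kind be compared. Each is the stretch of 250 bases before the transcription start in RefSeq, on GRCm38.p6, a build other than the mm9 of the counts, written 5′ to 3′ on the strand of the gene. Bcl2 lies on the minus strand at chr1:106714291-106714540 with a GC content of 74.8%, and Bax on the minus strand at chr7:45466899-45467148 with 54.0%. Capitals mark the GC box (GGGCGG, either strand) and, in Bax, a match to the decamer of which a p53 response element holds a pair (either strand), so a single copy and not a whole element; no marked stretch overlaps another.
Bcl2: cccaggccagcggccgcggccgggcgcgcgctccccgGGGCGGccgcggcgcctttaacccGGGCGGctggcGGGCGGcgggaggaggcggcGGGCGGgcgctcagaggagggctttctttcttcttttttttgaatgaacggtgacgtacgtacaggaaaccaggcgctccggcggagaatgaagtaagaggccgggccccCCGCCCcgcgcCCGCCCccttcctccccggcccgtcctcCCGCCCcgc
Bax: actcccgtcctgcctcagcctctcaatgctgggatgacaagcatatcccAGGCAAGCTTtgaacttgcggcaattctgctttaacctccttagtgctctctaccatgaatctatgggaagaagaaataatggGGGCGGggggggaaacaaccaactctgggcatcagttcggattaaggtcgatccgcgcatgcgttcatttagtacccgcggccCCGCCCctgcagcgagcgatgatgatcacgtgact
Bcl2 holds 7 GC boxes and Bax 2, and 32.9% of 27025 RefSeq promoters hold at least 1 in the same window. A single p53 decamer occurs in 7.18% of them, with 1 match in Bax and, not shown, 1 in a promoter window of Bmf. The HOX13 motifs CAATAAA and TCGTAAA, searched on both strands, occur in 4.42% and 0.492% of all promoters and had 0 matches in the 16 promoter windows of the 9 members searched. Pmaip1, the member that rose, was not searched. A match is a description of letters only.

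The other pro-survival members did not pass the test. Mcl1, which encodes a short-lived protein needed by many embryonic cells and bound by NOXA, was the member measured with the narrowest interval. It had 188 and 178 CPM in wild type, 188 and 188 in the mutant and 203 at E10.5. Its log2 fold change was 0.02 (SE 0.08, adjusted p = 0.923) with an interval from 0.899-fold to 1.15-fold. Bcl2l1 encodes BCL-XL, which protects erythroid cells and neurons among others. It had 39.9 and 41.7 CPM in wild type, 49.3 and 42.3 in the mutant and 36.2 at E10.5. The E11.5 groups did not overlap by CPM but did after TMM scaling, which adjusts library sizes so that most genes stay level, and the log2 fold change was 0.15 (SE 0.11, adjusted p = 0.492). The summed erythroid markers, given above, were higher in the mutant than in wild type and highest at E10.5 (3467 CPM), where Bcl2l1 CPM was lowest. After TMM scaling Bcl2l1 was not lowest at E10.5 (41.6, against 38.4 and 41.1 in wild type and 47.5 and 40.5 in the mutant). The part of erythroid cells in the Bcl2l1 values was not tested.

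The effectors BAX and BAK form the pore in the mitochondrial membrane. Bax had 46.1 and 46.8 CPM in wild type, 45.2 and 48.5 in the mutant and 52.2 at E10.5. Its groups overlapped, and its log2 fold change of -0.0025 (SE 0.09, adjusted p = 0.994) had an interval from 0.866-fold to 1.15-fold and no stable sign. In the GENCODE annotation the exons of Bax overlap those of Gm45808 on the same strand, which has no row in the count tables. Strand cannot separate the reads of these genes, so the Bax level and its ratio to Bcl2 are uncertain to that extent. Bak1 had 32.6 and 39.3 CPM in wild type, 30.1 and 27.0 in the mutant and 41.8 at E10.5. Both mutant libraries were below both wild-type libraries, and the wild-type libraries differed from each other by more than the mutant ones. The log2 fold change was -0.35 (SE 0.12, adjusted p = 0.128), with an unadjusted 95% interval from 0.654-fold to 0.947-fold. Bak1 passed the test without wild-type replicate 1 (-0.50, adjusted p = 0.00492) and without the filter on low counts (-0.35, 0.0420). Its exons overlap those of Ggnbp1 on the other strand, so its value is uncertain if strand was not used.

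**Figure D2:**
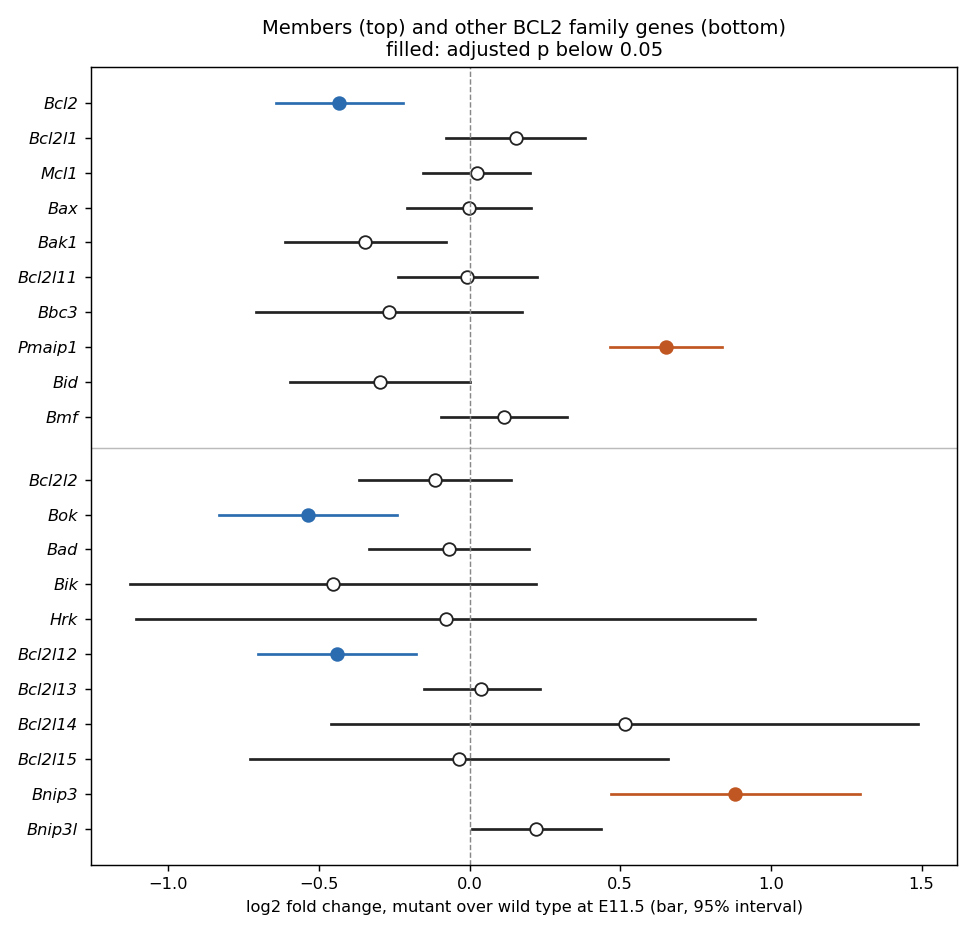
Log2 fold change, mutant over wild type at E11.5 (horizontal axis), with its 95% interval for the 10 members (top) and the 11 other BCL2 family genes tested (bottom), filled where the adjusted p is below 0.05. Pmaip1 (0.65) and Bnip3 (0.88) lie to the right of 0 and Bcl2 (-0.43), Bok (-0.54) and Bcl2l12 (-0.44) to the left.

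Levels of different genes were compared per length, as CPM per kilobase of the union of a gene's exons in GENCODE. In wild type Mcl1 (53.5) and Bax (53.5) stood highest and overlapped, followed by Pmaip1 (47.7), whose 2 libraries (46.1 to 49.2) were below both. Bak1 (15.05), Bmf (12.6) and Bcl2l1 (10.49) followed without overlap, then Bcl2 (5.62) and Bid (5.21), which overlapped, then Bcl2l11 (4.07) and Bbc3 (2.07). In the mutant Pmaip1 (75.5, libraries 72.9 to 78.2) was the highest member, above Mcl1 (55.0) and Bax (54.0). At E10.5 Bax (60.2) and Mcl1 (59.5) were the highest and Pmaip1 (21.7) came next. Taking the longest transcript as the length put Bcl2l1 next after Pmaip1 and Bcl2l11 before Bid in wild type, and Mcl1, Bax, Pmaip1, Bcl2 and Bbc3 kept their ranks.

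**Figure D3:**
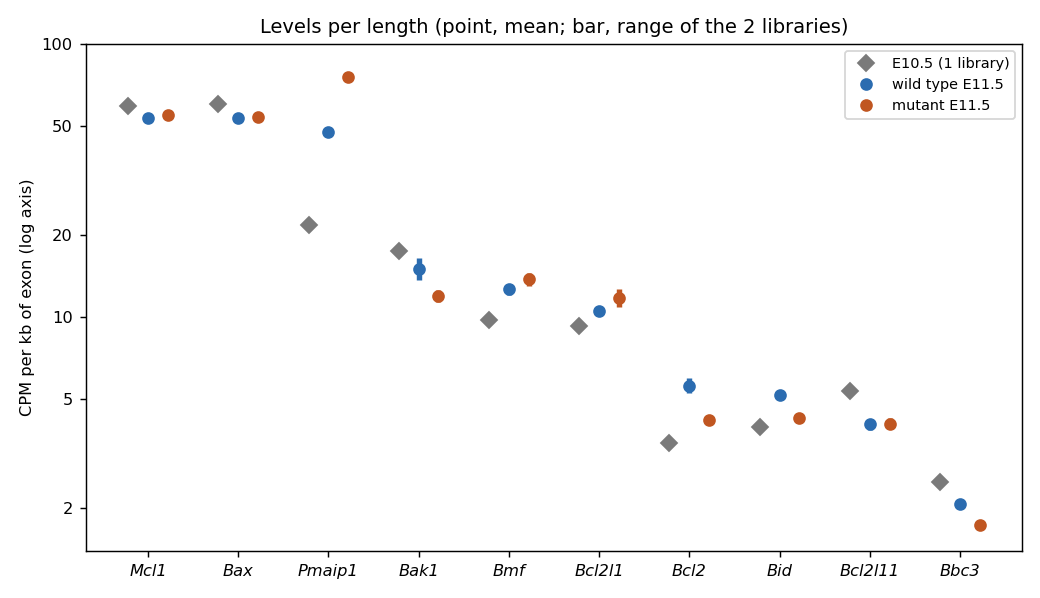
CPM per kilobase of exon (vertical log axis) of the members, ordered by their wild-type level, at E10.5 (1 library) and in both E11.5 groups (point, mean; bar, range of 2 libraries, often hidden by the point). Pmaip1 lies below Mcl1 and Bax in wild type (47.7 against 53.5 and 53.5) and above them in the mutant (75.5 against 55.0 and 54.0).

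Ratios of counts within a library do not depend on how libraries are scaled, and gene length cancels when libraries are compared. The ratio of Bax to Bcl2 counts was 0.842 and 0.972 in wild type, 1.202 and 1.232 in the mutant and 1.65 at E10.5. On the log2 scale the mutant mean was higher by 0.43 (0.28 ± 0.02 against -0.15 ± 0.15, SD, n = 2). The ratio of Bcl2l11 to Bcl2 was 0.536 and 0.555 in wild type, 0.784 and 0.681 in the mutant and 1.17 at E10.5. Both ratios share Bcl2 as the denominator, and their wild-type and mutant libraries did not overlap. The ratio of Bcl2l11 to Mcl1 was 0.156 and 0.150 in wild type, 0.157 and 0.143 in the mutant and 0.183 at E10.5, with overlapping E11.5 groups. The ratio of Bbc3 to Mcl1 was 0.0196 and 0.0214 in wild type, 0.0172 and 0.0163 in the mutant and 0.0223 at E10.5. Its E11.5 groups did not overlap either, with the mutant lower. Among all single genes tested, the groups did not overlap by CPM for 49.5%. No test was made of these ratios, since they restate the members' values.

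The E10.5 bud had more Bcl2l11, Bbc3, Bak1, Bax and Mcl1 and less Pmaip1, Bcl2, Bid and Bmf than wild-type E11.5 distal bud. Stage, dissected part and strain label differ together in this contrast. With 1 library there is no p-value, and a gene was called past 2-fold where E10.5 differed at least 2-fold in one direction from each wild-type library, on the log2 scale of TMM-scaled CPM (prior count 2). None of the 10 members was called (0 of 10), beside 16.7% of 16734 genes, 3.86% higher and 12.9% lower. By direction alone, 6 members were above both wild-type libraries and 4 below both, beside 41.6% and 44.1% of all genes. The median difference of the members was 0.23, beside -0.02 over all genes.

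The scaling matters for this contrast. Scaling by library size alone moved the E10.5 differences of all genes by a median of -0.24 against TMM. On that scale 5 members were above and 5 below, since Bcl2l1 went from 0.06 to -0.17. Pmaip1, at -0.90 with TMM (0.535-fold), was at -1.14 by library size alone and then passed the 2-fold rule as the single member, beside 15.8% of all genes called lower on that scale.

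Among the single members, Bcl2l11 had the largest excess at E10.5, at 0.64 on the log2 TMM scale (0.59 and 0.69 against the single wild-type libraries). Bbc3 followed with 0.50, Bak1 with 0.46, Bax with 0.40 and Mcl1 with 0.39. Bcl2 was at -0.46, Bid at -0.16 and Bmf at -0.13. The mutant comparison uses the same wild-type libraries, so the values are set side by side only. For Bcl2 the E10.5 library (36.3 TMM-scaled CPM) lay within the mutant libraries (36.2 and 37.6) and below wild type (52.7 and 47.5), although by library size alone it was below the mutant. For Pmaip1 the wild-type libraries (129 and 124 TMM-scaled CPM) lay between E10.5 (67.9) and the mutant (206 and 190). The macrophage markers were also lower at E10.5, with 11 of 12 past the 2-fold rule, and their part in these values was not tested.

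**Figure D4:**
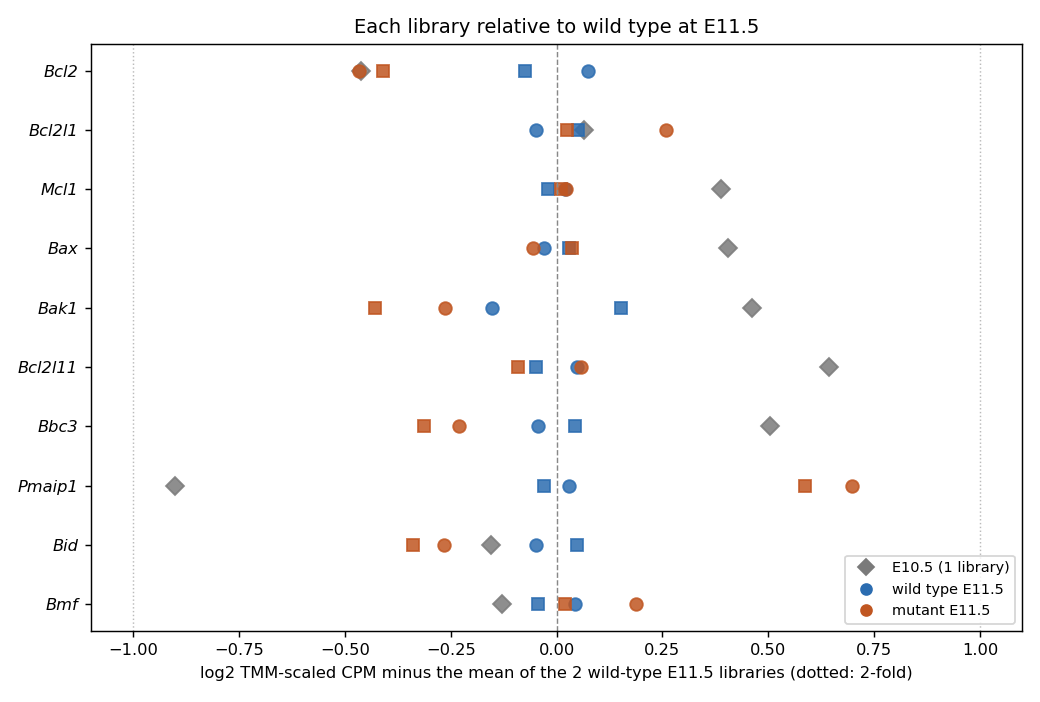
Log2 TMM-scaled CPM of each library minus the mean of the 2 wild-type E11.5 libraries (horizontal axis; dotted lines mark 2-fold) for the 10 members, with diamonds for E10.5, circles for replicate 1 and squares for replicate 2. Pmaip1 has E10.5 at -0.90 and both mutant libraries to the right of 0, while for Bcl2 the E10.5 and mutant points lie together to the left.

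Over the 5 libraries Pmaip1 (1.60) and Bak1 (0.89) had the largest range of log2 TMM-scaled CPM of the 10 members. The genes whose centred values lay nearest to those of Pmaip1, among 16165 others, were Lyz1, Rbms3 and Lpcat2, with root mean square differences of 0.04, 0.04 and 0.06 on the log2 scale over 5 libraries. Rbms3, which encodes an RNA-binding protein, had 107 and 98.8 CPM in wild type, 179 and 167 in the mutant and 49.3 at E10.5. Lyz1, a lysozyme gene with a near-identical copy in Lyz2, had between 0.154 and 0.635 CPM and is uncertain. Lpcat2, an enzyme of phospholipid synthesis, had 4.97 and 4.84 CPM in wild type, 7.27 and 7.43 in the mutant and 2.22 at E10.5. For Bak1 the nearest were Ftl1 (0.03), Rpl10 (0.03) and Cyb5d1 (0.03), of which the ferritin gene Ftl1 and the ribosomal protein gene Rpl10 have many processed copies in the genome.

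The rest of the pathway was read from 4 lists with 79 genes, of which 73 were tested in the mutant comparison. Among these 1 rose and 2 fell (4.11%, beside the 7.16% of all genes), and all 3 belong to the 16 other BCL2 family genes, of which 11 were tested. Bnip3, a mitochondrial protein of mitophagy that is induced by hypoxia, rose. It had 61.8 and 51.4 CPM in wild type, 133 and 77.5 in the mutant and 73.6 at E10.5, so that mutant replicate 1 stood far above the other libraries (log2 fold change 0.88, SE 0.19, adjusted p = 0.0146). Exons of Bnip3 overlap those of Gm45507 on the other strand, which has no row in the count tables. Bok, a BAX-like effector, fell from 13.1 ± 1.22 to 9.09 ± 0.207 CPM (SD, n = 2), at -0.54 (SE 0.13, adjusted p = 0.0328). Bcl2l12 fell from 23.7 ± 0.350 to 17.6 ± 2.03 CPM, at -0.44 (SE 0.12, adjusted p = 0.0473), and its exons overlap those of Gm15545 on the other strand.

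These 3 calls were less steady than that of Pmaip1. Without mutant replicate 1 Bnip3 had 0.44 (adjusted p = 0.0680) and Bok -0.52 (0.179), and without mutant replicate 2 Bok had -0.55 (0.126) and Bcl2l12 -0.32 (0.450). Without wild-type replicate 2 Bcl2l12 had -0.39 (0.0743), DESeq2 gave Bnip3 an adjusted p of 0.205, and with library size alone all 3 calls ended (adjusted p of 0.0507 for Bnip3, 0.0581 for Bok and 0.0704 for Bcl2l12). The 4 Bcl2a1 genes, pro-survival genes of blood cells with near-identical copies, had at most 0.111 CPM in any library and were not tested, as was Bcl2l10.

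Downstream of the mitochondrion, none of 24 genes of the apoptosome, the caspases and their inhibitors rose or fell by edgeR or DESeq2, and 1 had an unadjusted p below 0.05, beside 19.4% of all 16166 genes. Apaf1, the scaffold of the apoptosome, had 0.19 (adjusted p = 0.261) and Casp9, the caspase it activates, 0.07 (0.827). Of 21 p53 pathway genes none was called by edgeR or DESeq2, and 3 had an unadjusted p below 0.05. Eda2r was higher, at 0.73 (adjusted p = 0.0567), while Ppp1r13b (-0.56, 0.0621) and Trp73 (-0.59, 0.243) were lower. Trp53 itself had -0.23 (adjusted p = 0.321), and Cdkn1a and Mdm2, of the same list, had -0.33 (0.610) and -0.07 (0.732). Of the members known as p53 targets, Pmaip1 rose, and Bax and Bbc3 were not called. The part of p53 in these values was not tested. Of 17 regulators and partners none was called by edgeR or DESeq2, and 4 had an unadjusted p below 0.05, a share near that of all genes. FOXO factors, which induce Bcl2l11 and Bbc3, had 0.24 (Foxo3, adjusted p = 0.508) and -0.09 (Foxo1, 0.858), and the MCL1 ubiquitin ligase gene Huwe1 had -0.02 (0.944). Single genes of these 3 lists were named for their role after their values were seen. Without wild-type replicate 2 there were 1, 2 and 1 calls in the 3 lists, and with no filter on low counts 0, 2 and 1.

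**Figure D5:**
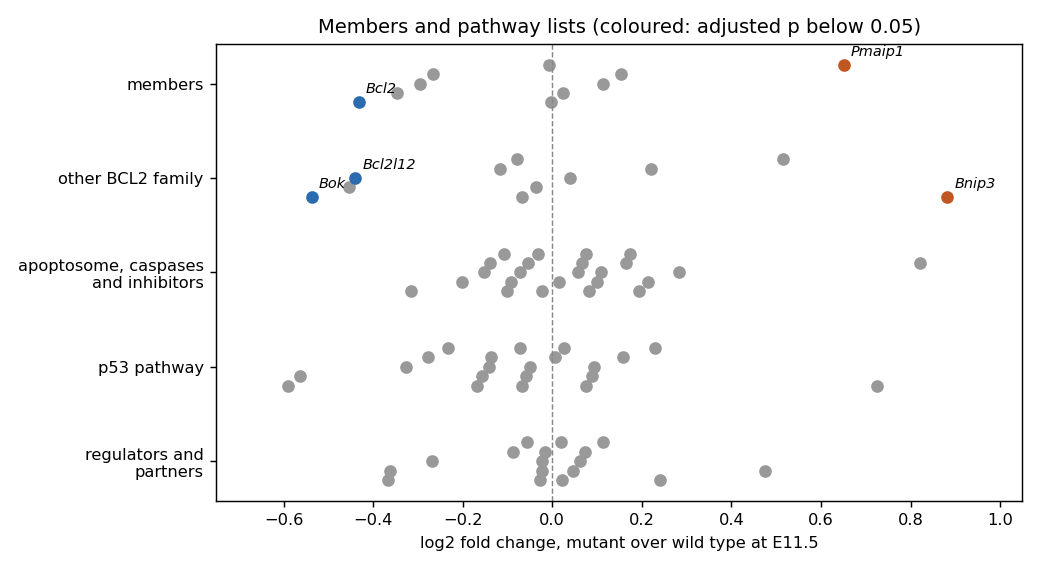
Log2 fold change, mutant over wild type at E11.5 (horizontal axis), of the members and of the tested genes of 4 pathway lists, 1 point per gene, coloured and named where the adjusted p is below 0.05 (vertical offsets within a list only separate points). The 3 called pathway genes, Bnip3, Bok and Bcl2l12, are all in the list of other BCL2 family genes.

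At E10.5, 2 of 74 pathway genes were past the 2-fold rule upward (2.70%) and 6 downward (8.11%), beside 3.86% and 12.9% of all genes, so neither share was above the background. The genes are given as values only. Dynll2, the dynein light chain that binds BMF, was higher with 52.9 CPM against 29.4 and 21.9 in wild type (1.30 on the log2 TMM scale), and the co-chaperone gene Bag3 with 5.50 against 2.90 and 2.81 (1.17). By library size alone neither passed the rule (1.06 for Dynll2, with 1 wild-type library within 2-fold, and 0.94 for Bag3). Tnfrsf10b, the TRAIL death receptor, was lower with 6.96 CPM against 33.3 and 23.6 (-1.77), as were the p53 relative Trp73 (-1.91) and the p53 target Btg2 (-1.21). Bcl2l14 (-1.55), Bcl2l15 (-1.53) and Bcl2l10 (-1.36) were lower too, each at under 2 CPM in every library. In the mutant comparison Tnfrsf10b had 0.06 (adjusted p = 0.887) and Dynll2 -0.02 (0.953).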

How the data were processed

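RNA was measured in 5 mouse forelimb libraries. Per the labels' protocols, stranded total RNA libraries were prepared after Ribo-Zero depletion and sequenced from both ends. Per the submitters' processing notes, TopHat2 2.0.13, Cufflinks 2.1.1, HTSeq and SAMtools were used with mm9; roles, annotation and strand setting are not given in the sources used here. The deposited values were whole-number read counts per gene symbol. The 5 HTSeq total lines (no feature, 24.3% to 39.6% of the file's total; not unique, 9.1% to 14.8%; ambiguous, 0.8% to 1.1%) were left out. The E10.5 library had the most reads in genes (84172202), the lowest share with no feature and the highest shares not unique and ambiguous.

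The 2 mutant and 2 wild-type E11.5 libraries were compared with edgeR 4.0.16 in R 4.3.3 (filterByExpr with minimum count 10 and minimum total 15, TMM, older quasi-likelihood estimate, genotype only), with Benjamini-Hochberg adjustment over 16166 genes. Standard errors and unadjusted 95% intervals come from the same fit. Alternatives used DESeq2 1.42.0, other scalings and filters, each library left out, and the replicate number as a block. The fit was tested on simulated data. It recovered 41 of 100 genes changed 1.5-fold and 78 of 100 changed 2-fold, with 15 false calls among 16101 genes tested. The replicates of a genotype differed by more than sampling noise. The E10.5 library has no replicate and gives no p-value. Exon lengths and overlaps came from GENCODE M21 on GRCm38 (lengths only, no coordinates joined to the counts), and promoters from RefSeq GRCm38.p6. The members and gene lists were chosen with earlier results of these data known. All 10 members are named; from each pathway list the up to 4 called genes of smallest adjusted p, the up to 3 largest E10.5 calls, and the 3 nearest patterns of the 2 most variable members. Pidd1, Tigar and Adgre1 were read under older symbols. Single values of some listed genes are not reported here.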

Additional observations from a re-analysis of the deposited data

How the results depend on the processing

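Of the members, Pmaip1 kept its call and direction under each alternative run. The number of members called was 2 in the fit as reported and ranged from 1 to 3 when single libraries were left out, with Bcl2 lost without either mutant library and Bak1 gained without wild-type replicate 1. The log2 fold changes of Bax and Bcl2l11, near 0, reversed to 0.0121 and 0.0050 with library size alone, and ranged from -0.0472 to 0.0437 and from -0.0838 to 0.0652 when single libraries were left out. The genes called over the whole table numbered 1157, 1762 with no filter on low counts, and between 796 and 2018 when single libraries were left out (2018 without wild-type replicate 1). Pathway calls numbered 3, 0 with library size alone (533 risen and 412 fallen over all genes), 6 with no filter, and between 1 and 6 when single libraries were left out (1 without either mutant library, 6 without wild-type replicate 2). The cause of these differences was not tested. Library size alone gave 1 member past 2-fold at E10.5 in place of 0. When single libraries were left out, the log2 difference ranged from 0.32 to 0.53 for Bax to Bcl2, from 0.32 to 0.52 for Bcl2l11 to Bcl2 and from -0.36 to -0.23 for Bbc3 to Mcl1, while Bcl2l11 to Mcl1 ranged from -0.10 to 0.03, changing sign without mutant replicate 2. Replicate 1 of mutant and of wild type had a correlation of deviations of -0.08 over genes. That value shows no pairing by number over all genes but cannot exclude one that affects some genes. With the replicate number as a block 1252 genes, 2 members and 3 pathway genes were called. With 2 libraries a group, p-values measure the spread between pools only, and the fit moderates each gene's spread toward that of other genes. Bbc3, with 148 to 381 reads, is the member that depth limits most.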
